A study of Mus musculus with 4 samples.

Results

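The microRNAs (miRNAs) miR-146a-5p, miR-146b-5p and miR-155-5p were followed in small RNA libraries of mouse aorta. They were chosen by name as miRNAs known to be induced by NF-kB and cytokines, and they are 3 of the 1152 entries listed in each library, 1079 of which carry a miRNA name. The libraries were 2 labelled CKD (chronic kidney disease) and 2 labelled Sham, all from wild type C57BL/6 mice of 12 weeks, and each library pooled 4 samples. The model, as labelled, began with surgery: the poles of the left kidney were removed and the right one taken out 1 week later, and the mice were then kept on a 2% phosphate diet with 0.45% NaCl in the drinking water for 4 weeks, in order to induce vascular calcification. The labels repeat these words for both groups and do not say what was done to the Sham mice instead. With 2 pooled libraries a group, p-values measure the spread between these pools only, which may be technical.

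The members belong to a feedback circuit of innate immunity. NF-kB, switched on by Toll-like receptors and by interleukin and tumour necrosis factor receptors, raises transcription of the miR-146a gene, and miR-146 in turn represses Irak1 and Traf6, the kinase and the adaptor protein that carry the receptor signal to NF-kB. miR-155 is processed from the transcript of the non-coding host gene Mir155hg, is induced in activated macrophages, lymphocytes and endothelium, and represses the signalling inhibitors Socs1 and Inpp5d. In the vessel wall miR-146 is known as a brake on endothelial activation, and miR-155 is known from macrophages and from smooth muscle.

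The mature sequences show which members share a targeting seed, bases 2 to 8, given in capitals. They were taken from RefSeq (GRCm38.p6), where all 6 names of both arms of the hairpins matched.
miR-146a-5p: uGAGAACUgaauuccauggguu
miR-146b-5p: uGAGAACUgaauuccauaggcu
miR-155-5p: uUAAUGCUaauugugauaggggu
miR-146a-5p and miR-146b-5p carry the same seed, GAGAACU, and miR-155-5p carries another, UAAUGCU. In the RefSeq table no mature mouse miRNA outside the members held either seed. By name, 40 of the 54 mature miRNAs looked up were found there, so that table may not list every one.

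The miR-146 pair is nearly identical along its whole length, which bears on how well short reads can separate them. The bases that differ are in capitals here.
miR-146a-5p: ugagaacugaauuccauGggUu
miR-146b-5p: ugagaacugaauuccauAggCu
Counted from the 5′ end of miR-146a-5p, the differences are G18A and U21C, 2 of 22 bases, and the first 17 bases are shared. A read trimmed to those 17 bases would match both, and the sources used here do not give the rule by which such reads were assigned. No other entry had the deposited values of any member in all 4 libraries.

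The 3 members come from separate loci. On GRCm38, miR-146a-5p lies at chr11:43374435-43374456 on the minus strand, in the gene Mir146, which overlaps no other gene in GENCODE M21. miR-146b-5p lies at chr19:46342790-46342811 on the plus strand, in Mir146b, which sits inside the protein-coding gene Mfsd13a on the same strand without overlapping one of its exons. miR-155-5p lies at chr16:84714143-84714165 on the plus strand, in Mir155, which overlaps an exon of Mir155hg.

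The deposited values are counts per 1000000 reads (CPM), and whole reads could be recovered from them, between 16658810 and 17532748 a library. Smooth muscle content was visible in the smooth muscle miRNA miR-143-3p, which held 41.1% and 40.8% of reads in the CKD libraries, against 79.8% and 72.5% in the Sham libraries. Since each library sums to a fixed total, a lower share of this single miRNA raises the values of the rest. The median log2 difference of the 479 entries tested (mean CPM of at least 1) was 1.34 on the deposited scale. The members and the other entries described with them are therefore also placed after trimmed-mean (TMM) scaling, which assumes that most entries did not change and which brought that median to -0.00083.

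All 3 members were higher in CKD on the deposited scale, and so were most other entries. Relative to that shared shift none of the 3 passed the test. miR-146b-5p lay above the upper quartile of all tested entries, while miR-146a-5p and miR-155-5p lay between the quartiles. Ratios of reads within a library did not depend on scaling, and 11 were computed. Among them, miR-146b-5p over miR-146a-5p was higher in both CKD libraries, by more than the spread between libraries of a group. Of the 478 tested entries set over miR-146a-5p, 34.1% likewise had both CKD libraries above both Sham libraries. The ratios of miR-155-5p to miR-146a-5p, and of each member to leukocyte marker miRNAs, overlapped between groups.

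miR-146a-5p, the better studied of the pair, had 432 and 552.5 CPM in the CKD libraries, against 151 and 230 CPM in the Sham libraries (7578 and 9204 reads, against 2649 and 3878). Both CKD values were above both Sham values, and the second library was the higher one in each group. Counting error was small beside these gaps: the Wilson 95% interval ran from 423 to 442 CPM in CKD 1 and from 146 to 157 CPM in Sham 1, and such intervals cover counting error only. The means were 492 ± 85.1 CPM in CKD and 190 ± 55.6 CPM in Sham (SD, n = 2 each). By limma on log2(CPM + 1), a scale that understates the change of low entries, the difference was 1.39 (SE 0.42, Benjamini-Hochberg adjusted p = 0.011).

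miR-146b-5p, which shares the seed of miR-146a-5p, showed the widest gap of the 3. It had 244 and 317 CPM in the CKD libraries, against 56.5 and 82.2 CPM in the Sham libraries (4284 and 5281 reads, against 989 and 1387). The groups did not overlap, and the lower CKD library was well above the higher Sham library. The means were 281 ± 51.4 CPM in CKD and 69.3 ± 18.2 CPM in Sham (SD, n = 2 each), and the log2 difference was 2.01 (SE 0.42, limma adjusted p = 0.0019).

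miR-155-5p was much the scarcest of the 3 in reads. It had 15.2 and 28.0 CPM in the CKD libraries, against 6.34 and 10.4 CPM in the Sham libraries (266 and 467 reads, against 111 and 175). The groups did not overlap, but CKD 1 lay closer to Sham 2 than to CKD 2. The means were 21.6 ± 9.09 CPM in CKD and 8.36 ± 2.85 CPM in Sham (SD, n = 2 each), and the log2 difference was 1.25 (SE 0.37, limma adjusted p = 0.0093).

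These calls have to be read against the background of all entries. Of the 479 tested, 82.9% were called higher in CKD and 1.04% were called lower when the deposited values were tested. In 91.2% both CKD libraries were above both Sham libraries, and in 1.46% both were below. With all 3 members called higher, the members' share is thus near that of entries in general. The deposited difference of miR-146b-5p was exceeded by 46 of the 479 entries, that of miR-146a-5p by 218 and that of miR-155-5p by 274. With a CKD library left out, none of the 3 passed. Without CKD 1 the differences were larger, at 1.56 for miR-146a-5p, 2.20 for miR-146b-5p and 1.67 for miR-155-5p (limma adjusted p = 0.12, 0.058 and 0.079). Without CKD 2 they were smaller, at 1.21, 1.83 and 0.82 in the same order (limma adjusted p = 0.21, 0.065 and 0.24). miR-155-5p did not pass without Sham 1 either (0.93, limma adjusted p = 0.14).

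**Figure D1:**
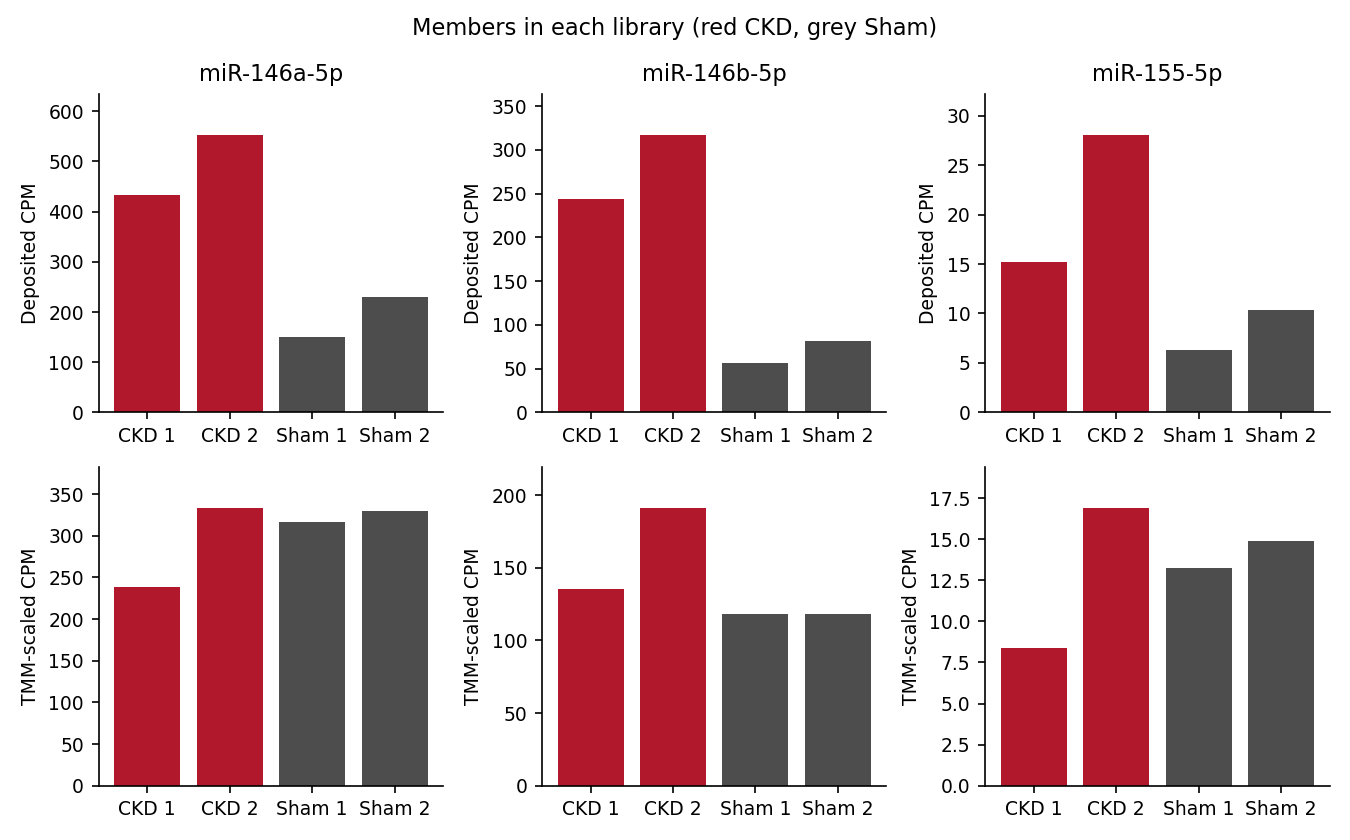
Values of miR-146a-5p, miR-146b-5p and miR-155-5p in the 2 CKD (red) and 2 Sham (grey) libraries, one bar a library, as deposited CPM (upper row) and as TMM-scaled CPM (lower row), each axis starting at 0. In the upper row every CKD bar is above every Sham bar, and in the lower row this holds only for miR-146b-5p.

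With TMM scaling the picture of the 3 members parted. miR-146b-5p had 135 and 191 scaled CPM in the CKD libraries, against 118 and 118 in the Sham libraries. Both CKD libraries stayed above both Sham libraries, CKD 1 only narrowly, a pattern that 28% of tested entries showed on this scale, while 31.5% showed the opposite one. The difference of 0.44 (SE 0.20) did not pass the test (limma adjusted p = 0.26). It was 0.68 without CKD 1, 0.20 without CKD 2 and 0.70 with libraries scaled by totals without miR-143-3p, and limma called it under none of these.

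miR-146a-5p had 239 and 333 scaled CPM in the CKD libraries, against 316 and 330 in the Sham libraries, so the Sham values lay between the CKD values. Its difference was -0.19 (SE 0.20, limma adjusted p = 0.55), inside the interquartile range of all tested entries, -0.31 to 0.31. miR-155-5p had 8.39 and 16.9 scaled CPM in the CKD libraries, against 13.2 and 14.9 in the Sham libraries, again with the Sham values inside the range of the CKD values. Its difference was -0.22 (SE 0.34, limma adjusted p = 0.70), inside that range too. Both of these differences changed sign when libraries were scaled by totals without miR-143-3p (0.06 and 0.02), or when CKD 1 was left out (0.03 and 0.24), while that of miR-146b-5p stayed above 0 under every setting tried.

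On the TMM scale 1.88% of entries were called higher and 5.85% lower, 9 and 28 of 479, and none of the 3 members was among them. With totals without miR-143-3p the calls were 14 higher and 14 lower. The TMM-scaled difference of miR-146b-5p was exceeded by 83 of the 479 entries, that of miR-146a-5p by 318 and that of miR-155-5p by 332.

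**Figure D2:**
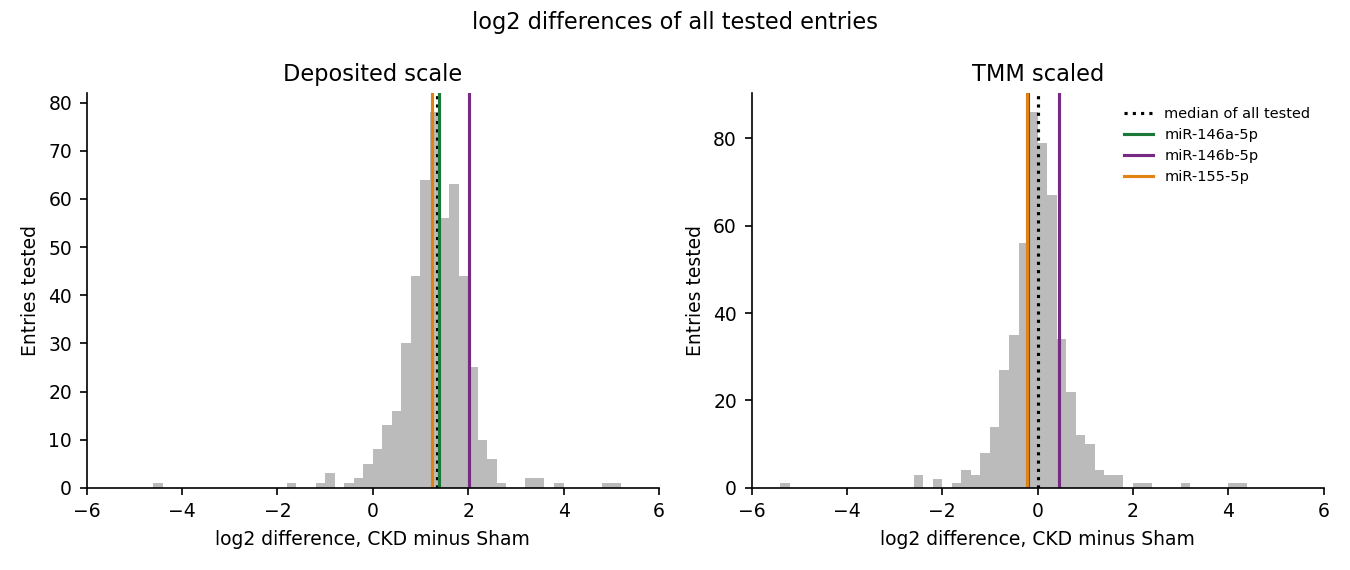
Number of tested entries (vertical axis) by log2 difference, CKD minus Sham (horizontal axis), on the deposited scale (left) and with TMM scaling (right), with the median of all 479 entries dotted and each member as a coloured line. On the deposited scale the bulk lies above 0 around 1.34. On both scales miR-146b-5p is to the right of the median while miR-146a-5p and miR-155-5p are close to the median, where their lines nearly coincide on the right.

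Ratios between members within a library are independent of how libraries are scaled to each other. miR-146b-5p made up 36.1% and 36.5% of the reads of the miR-146 pair in the CKD libraries, against 27.2% and 26.3% in the Sham libraries. The Wilson 95% intervals, which cover counting error only and not the spread between libraries, were 35.3% to 37.0% and 35.7% to 37.2% in CKD. In Sham they were 25.8% to 28.7% and 25.2% to 27.6%, and no CKD interval met a Sham interval. The means were 36.3% ± 0.243 in CKD and 26.8% ± 0.595 in Sham (SD, n = 2 each), a difference of 9.52 percentage points. The 2 libraries of a group thus differed by under 1 point, and the groups by far more.

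Put as a ratio, there were 56.5 and 57.4 reads of miR-146b-5p per 100 reads of miR-146a-5p in the CKD libraries, against 37.3 and 35.8 in the Sham libraries, a log2 difference of 0.64 or 1.56-fold. An exact two-sided permutation test over 4 libraries cannot go below p = 0.333, the value obtained here (adjusted p = 0.733 over the 11 ratios computed). Leaving out any 1 library kept the difference between 0.61 and 0.67. Among the other 478 tested entries taken over miR-146a-5p in the same way, with miR-146b-5p included, 34.1% had both CKD libraries above both Sham libraries and 16.7% had both below. Adaptor ligation captures some sequences better than others, so the ratio in one library is one of reads and not of molecules.

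miR-155-5p kept pace with miR-146a-5p on average, but loosely. There were 3.51 and 5.07 reads of miR-155-5p per 100 reads of miR-146a-5p in the CKD libraries, against 4.19 and 4.51 in the Sham libraries. The Sham ratios lay inside the range of the CKD ratios, and the log2 difference was -0.04 (exact two-sided permutation p = 1.0 with n = 2 each).

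**Figure D3:**
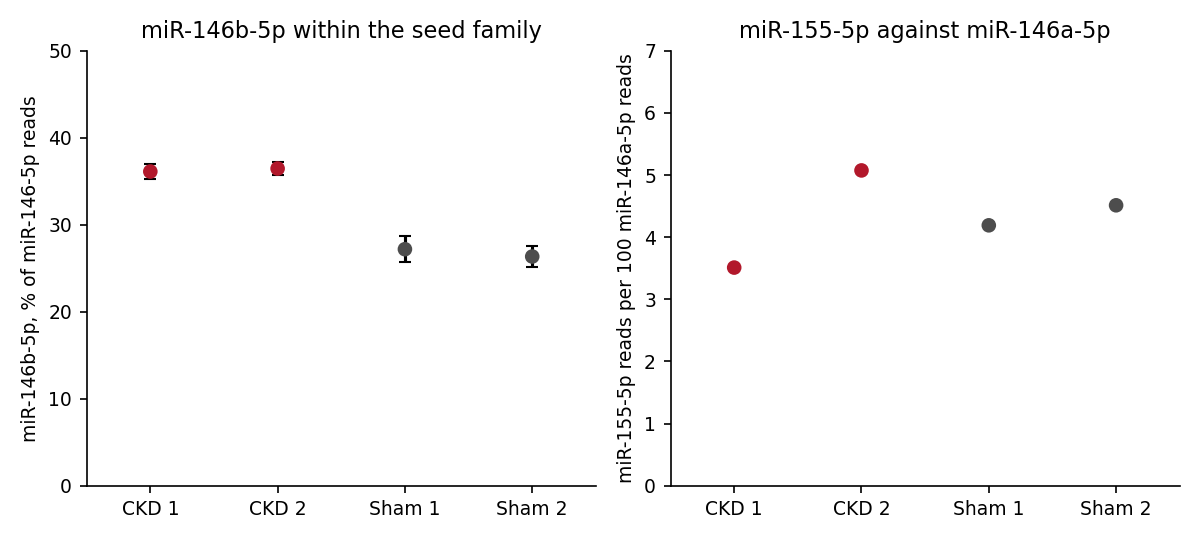
Left, miR-146b-5p as a percentage of the reads of miR-146a-5p and miR-146b-5p in each library, with Wilson 95% intervals as bars. Right, reads of miR-155-5p per 100 reads of miR-146a-5p. The CKD libraries (red) lie at 36.1% and 36.5% in the left panel and the Sham libraries (grey) at 27.2% and 26.3%, while in the right panel the groups overlap.

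In reads, both groups had the same order of levels: miR-146a-5p first, then miR-146b-5p, then miR-155-5p. Among all 1152 entries miR-146a-5p ranked 70 and 64 in the CKD libraries, against 64 and 65 in the Sham libraries. miR-146b-5p ranked 87 and 81 in CKD, against 95 and 98 in Sham, a higher place in both CKD libraries. How many of all entries moved in this way by rank was not counted. By TMM-scaled value, which is another measure than rank, 28% of the 479 tested entries had both CKD libraries above both Sham libraries. miR-155-5p ranked 265 and 206 in CKD, against 224 and 221 in Sham. Together the miR-146 pair had 677 and 870 CPM in the CKD libraries, against 208 and 312 CPM in the Sham libraries. After TMM scaling the sums were 374 and 524 in CKD, against 434 and 448 in Sham, and the groups overlapped.

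The other arm of each hairpin was almost unsequenced, so nearly all reads of each hairpin came from the 5p arm in both groups. At 21 nucleotides, miR-155-3p is shorter than the 22 to 30 nucleotides recovered per the labels' protocols, and the effect on its reads was not tested. The hairpins are shown with both mature arms in capitals, from RefSeq (GRCm38.p6).
Mir146: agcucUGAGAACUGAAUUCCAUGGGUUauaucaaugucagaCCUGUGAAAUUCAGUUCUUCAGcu
Mir146b: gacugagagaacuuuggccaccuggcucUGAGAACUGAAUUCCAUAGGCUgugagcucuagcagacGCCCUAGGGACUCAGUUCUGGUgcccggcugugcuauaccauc
Mir155: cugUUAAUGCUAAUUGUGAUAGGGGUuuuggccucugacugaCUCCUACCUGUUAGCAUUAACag
The hairpins lie at chr11:43374397-43374461 on the minus strand and at chr19:46342762-46342870 and chr16:84714140-84714204 on the plus strand. While the 5p arms of Mir146 and Mir146b are nearly alike, their 3p arms have seeds of their own, CUGUGAA and CCCUAGG.

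None of the 3p arms reached the mean of 1 CPM needed for the test. miR-146b-3p had 23 and 32 reads in the CKD libraries, against 1 and 7 reads in the Sham libraries, which is 0.534% and 0.602% of the reads of its hairpin in CKD, against 0.101% and 0.502% in Sham. The Wilson 95% intervals of these shares overlapped between groups (0.356% to 0.800% and 0.427% to 0.849% in CKD, against 0.0178% to 0.570% and 0.243% to 1.03% in Sham), so a change in arm use was not detectable at this depth.

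miR-146a-3p had 7 and 6 reads in the CKD libraries, against 3 and 4 reads in the Sham libraries. miR-155-3p had 3 and 5 reads in the CKD libraries, against 0 reads in both Sham libraries, where 3 reads would be 0.171 and 0.178 CPM. The CKD level of miR-155-3p, 0.17 and 0.30 CPM, was at that level of 3 reads in CKD 1 and above it in CKD 2. The Wilson 95% interval of a count of 0 reached 0.219 and 0.228 CPM in the Sham libraries, above the CKD 1 value. On counts this small no fold is given.

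Other inflammation-linked miRNAs were described with the same fits. Of 12 others known to be induced by NF-kB, Toll-like receptor ligands or cytokines, all 12 were called higher in CKD without TMM scaling, where 82.9% of all tested entries were. Their median difference was 1.83 beside 1.34 over all tested. With TMM scaling 1 was called higher, none lower, and 11 did not pass, with a median of 0.32 beside -0.00083 over all tested. The called one was miR-221-3p, a growth-promoting miRNA of smooth muscle, at 0.76 (SE 0.12, limma adjusted p = 0.039).

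The most abundant of the 12, miR-21a-5p, a profibrotic and growth-linked miRNA, had 13977 and 18127 CPM in the CKD libraries, against 2875 and 4084 CPM in the Sham libraries. It was called higher on the deposited scale (2.22, limma adjusted p = 6.2e-04) and was not past the threshold with TMM scaling (0.63, limma adjusted p = 0.13). miR-31-5p, induced by tumour necrosis factor in human endothelium, had 398 and 360 CPM in CKD, against 98.1 and 156 CPM in Sham, and lay at 0.03 with TMM scaling. miR-222-3p, the cluster partner of miR-221-3p, had 312 and 298 CPM in CKD, against 66.5 and 105 CPM in Sham, and lay at 0.28 with TMM scaling. The TMM-scaled difference of miR-146b-5p, 0.44, was thus between those of miR-222-3p and miR-21a-5p. Those of miR-146a-5p and miR-155-5p were below those of miR-21a-5p, miR-31-5p, miR-221-3p and miR-222-3p. Of the 12 induced miRNAs, 10 lay above 0 with TMM scaling and 2 below. The 2 were miR-187-3p at -0.28 and miR-301a-3p at -0.50, both lower than miR-146a-5p and miR-155-5p, and were picked out after their values were seen.

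Of 9 other miRNAs known to restrain NF-kB signalling or its inflammatory targets, all 9 were called higher in CKD without TMM scaling, again beside 82.9% of all tested entries. Their median difference was 1.58 beside 1.34 over all tested. With TMM scaling limma called none of the 9, and the median was -0.0048 beside -0.00083. The most abundant was miR-125b-5p, reported to repress tumour necrosis factor mRNA, with 32309 and 38713 CPM in CKD, against 9933 and 14061 CPM in Sham, and with a TMM-scaled difference of -0.0048. miR-199a-3p, listed with the same values as miR-199b-3p and so not separable from it, lay at 1.88 as deposited and at 0.30 with TMM scaling. miR-24-3p lay at 1.84 and 0.25 on the same scales, and miR-10a-5p, a restraint on endothelial NF-kB, at 1.14 and -0.44.

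**Figure D4:**
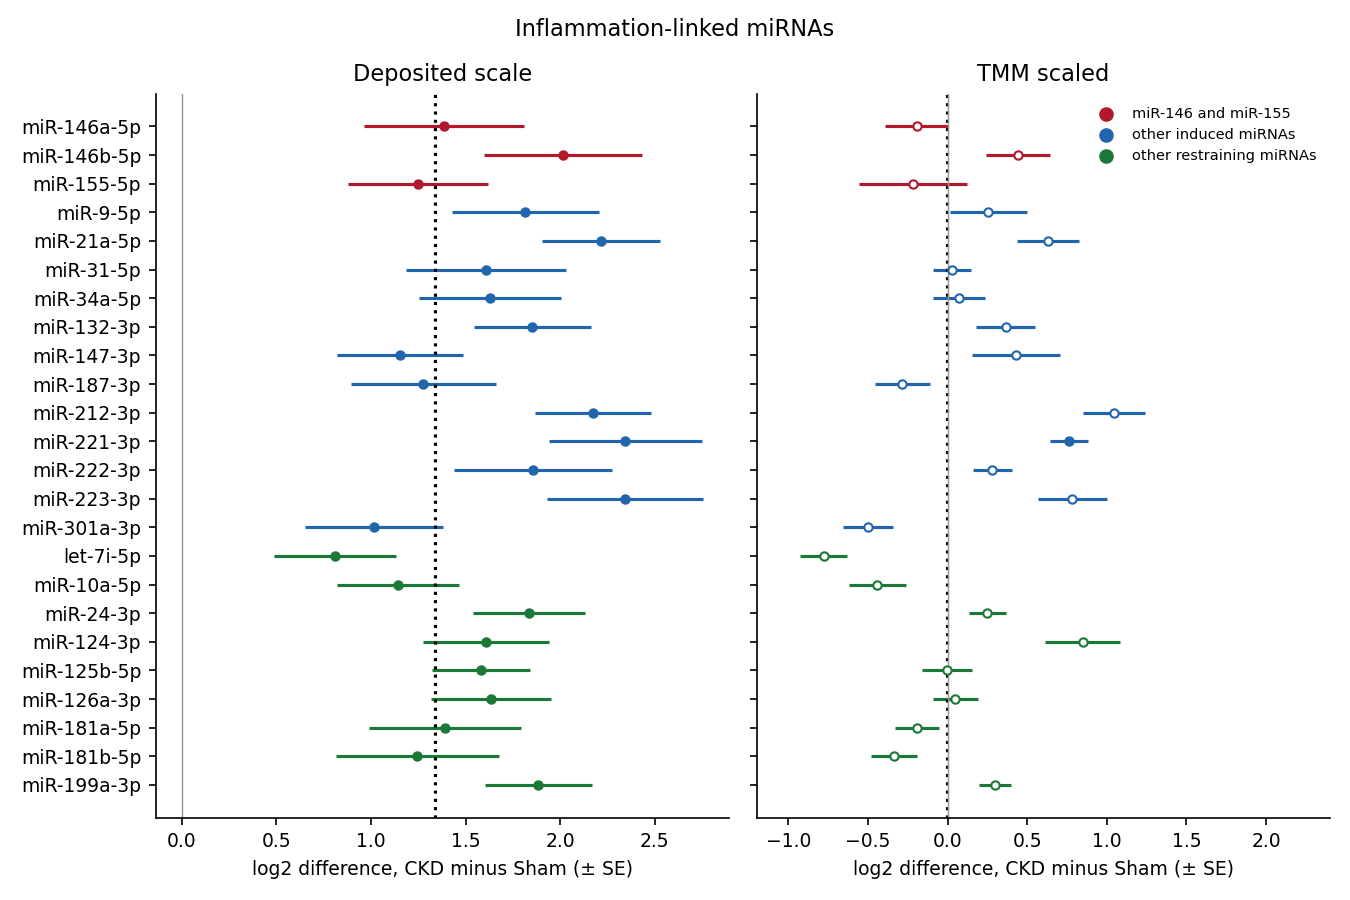
log2 difference, CKD minus Sham, with its SE (horizontal axis) for the 3 members (red), 12 other induced miRNAs (blue) and 9 other restraining miRNAs (green), on the deposited scale (left) and with TMM scaling (right). Filled points passed the limma adjusted p threshold of 0.05, the dotted line is the median of all tested entries and the thin line is 0. Every point is filled on the left, and only that of miR-221-3p on the right.

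Leukocytes are a known source of both miR-146a and miR-155, and in bulk tissue fewer cells of a type and less RNA per cell cannot be told apart. The 9 leukocyte marker miRNAs summed to 542 and 613 CPM in the CKD libraries, against 114 and 284 CPM in the Sham libraries, or 299 and 369 scaled CPM in CKD, against 237 and 408 in Sham. As deposited, 7 of the 9 were called higher and 2 did not pass, beside 82.9% called higher among all tested entries, and with TMM scaling limma called none of them. None of the 9 was at 0 in any library. miR-142a-5p, a pan-leukocyte miRNA, had 148 and 150 CPM in CKD, against 24.1 and 90.1 CPM in Sham, and lay at 0.09 with TMM scaling. miR-142a-3p, the other arm of its hairpin, had 18.5 and 30.4 CPM in CKD, against 10.4 and 33.5 CPM in Sham, with overlapping groups, and lay at -1.18 with TMM scaling (limma adjusted p = 0.22). The myeloid miR-223-3p, also among the induced miRNAs above, had 147 and 195 CPM in CKD, against 25.6 and 41.2 CPM in Sham, and lay at 0.78 with TMM scaling (limma adjusted p = 0.11). Of the 9 markers 5 lay above 0 and 4 below with TMM scaling, the 4 being miR-142a-3p, miR-150-5p, miR-342-3p and miR-342-5p, which were picked out after their values were seen. The part of leukocyte content in the members' values was not tested.

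Relative to the summed leukocyte markers no member separated the groups. For miR-146a-5p there were 79.8 and 90.2 reads per 100 marker reads in CKD, against 133 and 81.0 in Sham. For miR-146b-5p there were 45.1 and 51.7 in CKD, against 49.7 and 29.0 in Sham, and for miR-155-5p there were 2.80 and 4.58 in CKD, against 5.58 and 3.66 in Sham. The Sham libraries differed from each other by more than the CKD libraries did for the miR-146 pair. The exact two-sided permutation p was 0.667 for each of the 3 ratios (n = 2 each).

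The endothelial miR-126a-3p, which is also in the list of restraining miRNAs, had 7510 and 7457 CPM in CKD, against 2208 and 2626 CPM in Sham, and its other arm miR-126a-5p had 2478 and 2310 CPM in CKD, against 690 and 785 CPM in Sham. With TMM scaling these arms lay at 0.05 and 0.11. Per 100 reads of miR-126a-3p there were 3.25 and 4.25 reads of miR-146b-5p in CKD, against 2.56 and 3.13 in Sham, a log2 difference of 0.40 without overlap, although CKD 1 exceeded Sham 2 only narrowly (exact two-sided permutation p = 0.333, the smallest possible). With 1 library left out the difference ran from 0.20 without CKD 2 to 0.59 without CKD 1. Of the other 478 tested entries, miR-146b-5p included, 18.8% had both CKD libraries above both Sham libraries over this denominator, and 31.4% had both below. There were 5.75 and 7.41 reads of miR-146a-5p in CKD, against 6.85 and 8.75 in Sham, and 0.202 and 0.376 reads of miR-155-5p in CKD, against 0.287 and 0.395 in Sham. For these last 2 members the groups overlapped.

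Against miR-143-3p, the contractile smooth muscle miRNA that was itself called lower, all 3 members were higher in CKD, as were nearly all entries. The log2 differences of the ratios were 2.28 for miR-146a-5p, 2.92 for miR-146b-5p and 2.24 for miR-155-5p, and none of them overlapped between groups (exact two-sided permutation p = 0.333 for each, the smallest possible with n = 2 each). Of the 478 tested entries set over miR-143-3p, 95.6% likewise had both CKD libraries above both Sham libraries, and 0.628% had both below. miR-143-3p was called lower as deposited (-0.89, limma adjusted p = 2.5e-04) and with TMM scaling (-2.48, limma adjusted p = 0.012). Its cluster partner miR-145a-5p was called higher as deposited (0.85, limma adjusted p = 0.0043) and lower with TMM scaling (-0.73, limma adjusted p = 0.044). Of the 4 smooth muscle markers, 2 were called higher as deposited, 1 lower, and 1 did not pass. With TMM scaling 2 were called lower and none higher, and 3 lay below 0 and 1 above. The one above was miR-145a-3p at 0.22, picked out after its value was seen.

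**Figure D5:**
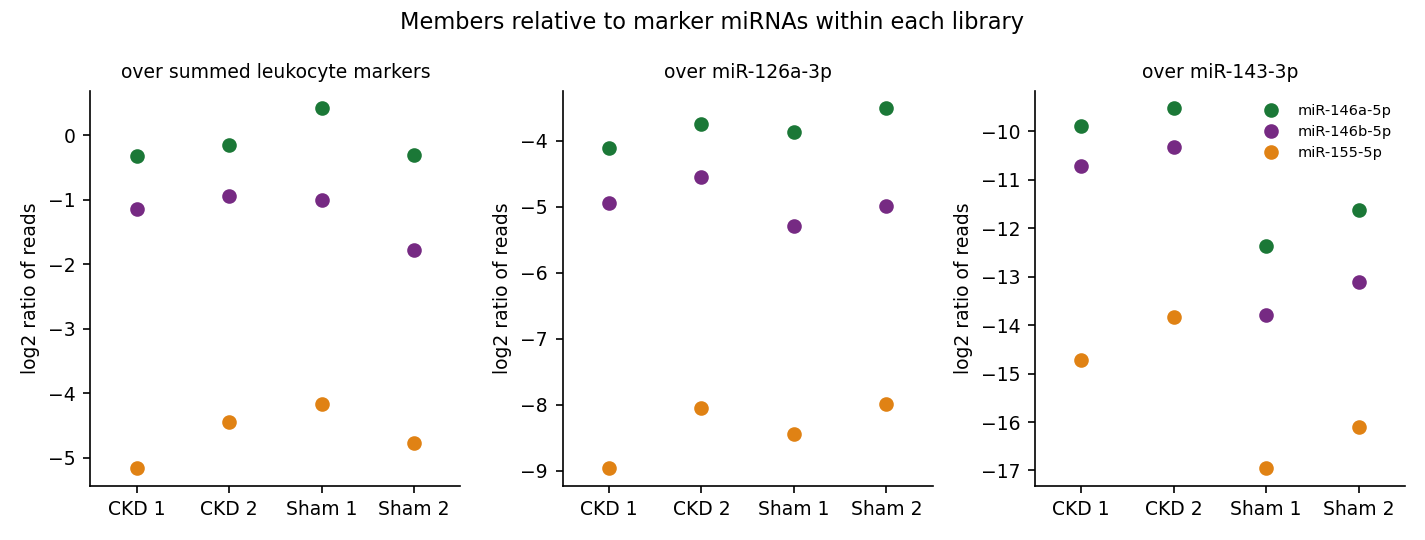
log2 ratio of the reads of each member to the summed leukocyte markers (left), to miR-126a-3p (middle) and to miR-143-3p (right) in each CKD and Sham library, one point a library. The groups overlap for every member on the left, separate narrowly for miR-146b-5p alone in the middle, and separate for all 3 members on the right, by 2.24 to 2.92.

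Markers of other cells differed between libraries of a group as well, and their sums are given as deposited and then after TMM scaling. The 4 red cell miRNAs summed to 1035 and 4804 CPM in CKD, against 219 and 841 CPM in Sham (572 and 2894 scaled CPM in CKD, against 458 and 1208 in Sham). The second library of each group thus held more of them, as it did of each member on the deposited scale. How many of all entries had this order was not counted. miR-143-3p held 79.8% of reads in Sham 1 and 72.5% in Sham 2, and a lower share of it raises the deposited values of the rest. Among the red cell miRNAs, miR-486a-5p had 445 and 3266 CPM in CKD, against 76.9 and 212 CPM in Sham, and miR-451a 510 and 1425 CPM in CKD, against 130 and 574 CPM in Sham. The share of miR-146b-5p within the miR-146 pair was 36.1% and 36.5% in CKD, against 27.2% and 26.3% in Sham. Its Wilson 95% intervals overlapped within each group, and a link to red cell content was not tested. The 6 epithelial miRNAs summed to 245 and 154 CPM in CKD, against 50.8 and 56.6 CPM in Sham (135 and 92.7 scaled CPM in CKD, against 106 and 81.4 in Sham), led by miR-203-3p and miR-200a-3p. The hepatocyte miR-122-5p had 161 and 56.0 CPM in CKD, against 1.43 and 25.5 CPM in Sham, and 88.8 and 33.7 scaled CPM in CKD, against 2.99 and 36.6 in Sham, where the groups overlapped. The 3 striated muscle miRNAs summed to 1202 and 967 CPM in CKD, against 508 and 620 CPM in Sham, nearly all of it miR-133a-3p. With TMM scaling the order turned, to 664 and 583 scaled CPM in CKD, against 1060.3 and 891 in Sham, and both tested members lay below 0. miR-1a-3p was at 7.76 to 16.6 deposited CPM over the libraries and miR-206-3p at 0 in Sham 2. The part of these cells in the members' values was not tested.

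The entries whose profile over the 4 libraries was most like that of each member were found by Euclidean distance of mean-centred log2(CPM + 1) values, among 250 named miRNAs with a mean CPM of at least 10. For miR-146a-5p they were miR-411-3p (0.048), miR-365-3p (0.064) and let-7j (0.079). For miR-146b-5p they were miR-106b-3p (0.17), miR-423-5p (0.17) and miR-21a-5p (0.20). For miR-155-5p they were miR-365-3p (0.32), let-7e-5p (0.37) and let-7a-5p (0.37). The distance of miR-146a-5p to its seed partner miR-146b-5p was 0.63, larger than that to miR-155-5p, 0.37, and miR-146b-5p and miR-155-5p lay 0.84 apart. These are descriptions over 4 libraries, which share the shift of each library.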

How the data were processed

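After Trizol extraction, gel-cut RNA 18 to 30 nucleotides long was ligated to adaptors and amplified, and product of 22 to 30 nucleotide RNA was recovered, per the labels' protocols. Per the submitters' processing notes, Bowtie (no version given) and GRCm38 were used. How miRNAs were annotated and counted is not stated in these sources. The deposited values sum to about 1000000 a library and were read as CPM made by the authors. In 3 of the 4 files, kept as an unusual deposited layout, names stand above values and were paired by order. Every value above 0 (100%) was a whole number of reads to within 0.005 CPM. The protocols mention no molecular identifiers, so a read need not be a separate molecule.

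limma 3.58.1 was run with a mean-variance trend on log2(CPM + 1), keeping the 479 entries that averaged at least 1 CPM, with two-sided Benjamini-Hochberg adjustment over all of them and a threshold of 0.05, on the deposited CPM and on CPM divided by TMM factors (edgeR 4.0.16; 1.81 and 1.66 in CKD, 0.479 and 0.696 in Sham). edgeR's quasi-likelihood test and DESeq2 1.42.0 on the recovered reads were alternatives, with other scalings, filters, pseudocounts, a replicate block and each library left out. Ratios of reads were compared by exact permutation over libraries (scipy 1.17.1). The tests were also run on simulated counts in which as many entries rose as fell. miR-143-3p was not among those, so a shift like the one here was not simulated. Within a group the 2 libraries were further apart than sampling of reads would give (chi-square 375 a degree of freedom in CKD and 524 in Sham), so none was counted as a repeat deposit. The members and lists were chosen with earlier results of these data known. Named miRNAs were the members, their other arms, up to 4 of the most abundant called members of each pathway list, the 2 most abundant markers of each cell type, and the 3 nearest profiles of each member. A few others were named after their values were seen, as stated with them. No batch is given in the labels.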

Additional observations from a re-analysis of the deposited data

How the results depend on the processing

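On the deposited scale the members stayed higher in CKD under every setting, with log2 differences, leaving out 1 library at a time, from 1.09 to 1.69 for miR-146a-5p, 1.75 to 2.28 for miR-146b-5p and 0.82 to 1.67 for miR-155-5p (limma adjusted p from 0.0094 to 0.24 over the 3). miR-155-5p was also not called without a filter on low values (1.25, limma adjusted p = 0.11). A pseudocount of 10 brought its difference to 0.76, still called (limma adjusted p = 0.0091). With TMM scaling no setting called a member. There miR-146b-5p ran from 0.20 to 0.68 with a library left out, miR-146a-5p from -0.43 to 0.034 and miR-155-5p from -0.66 to 0.24 with a library left out, these last 2 above 0 only without CKD 1. Totals without miR-143-3p gave 0.064 for miR-146a-5p, 0.70 for miR-146b-5p and 0.023 for miR-155-5p. A lone library of a group was assumed to vary like the other group.

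Of all entries, 402 were called on the deposited scale, 241 with a mean CPM of at least 10 (265 tested) and 137 to 384 with a library left out. With TMM scaling 37 were called, 18 without a filter, 69 by DESeq2 and 0 to 7 with a library left out. The counts of 0 were without CKD 1 and without CKD 2 (limma), where 92 and 109 had an unadjusted p under 0.05. The replicate block gave 10 TMM-scaled and 352 deposited calls and changed no call of a member. The deviations of libraries with the same number correlated at 0.10 as deposited and at 0.12 after TMM, over 2 pairs, and the labels do not say that numbers pair libraries. Adding 0.5 reads to each count moved the ratios by less than the spread between libraries. Leaving out a library changed the sign of the 3 ratios to leukocyte markers and of miR-155-5p over miR-126a-3p and over miR-146a-5p. The cause of these changes was not tested. The depth of miR-155-5p, 111 to 467 reads, and of the 3p arms limits their precision.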
